A study of Mus musculus with 33 samples.

Results

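Livers of mice 0.5 d after removal of 70% of the organ were compared with livers at 0 d, using every gene on the array. The members are the 3 arrays whose titles read 0.5d and the 3 whose titles read 0d, 6 of the 33 arrays of the series, chosen by title alone and not by any measured value. The series holds liver RNA from 11 times between 0 d and 14 d after 70% partial hepatectomy in mice, with 3 arrays a time described as biological replicates. The source labels name both groups by their day after the operation, so they do not say whether the 0 d livers were operated on. Strain, sex, age, hour of collection and whether animals were pooled are not given in the labels, and no sham-operated group enters the comparison. A description field speaks of cells grown from fat, while the source and tissue fields give liver. The values are log2 levels, so a log2 difference of 1 is a doubling, and a gene was called higher or lower when its Benjamini-Hochberg adjusted p in limma lay under 0.05.

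Partial hepatectomy removes whole lobes and leaves the remaining lobes uncut. Hepatocytes in the remnant leave rest and enter the cell cycle within the following days while they still have to supply the body with plasma proteins, bile, glucose and nitrogen disposal. The first hours are known for cytokine signals, chiefly interleukin-6 acting through STAT3, for immediate early transcription factors and for the acute phase response, in which hepatocytes switch secretion to defence proteins. The unfolded protein response is the programme by which a cell enlarges the folding capacity of its endoplasmic reticulum. Its sensors are IRE1, PERK and ATF6, and its target genes encode chaperones, oxidoreductases and the machinery that removes misfolded proteins. Cytochrome P450 enzymes, conjugating enzymes, bile acid synthesis, the urea cycle and fat synthesis are functions of the resting, fed hepatocyte.

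The RNA was that of liver on all 6 arrays. Albumin (Alb) had log2 levels of 14.67, 14.68 and 14.64 at 0.5 d, against 14.68, 14.71 and 14.68 at 0 d, and the mean log2 level of 8 hepatocyte markers was 13.9 on each 0.5 d array. Adipoq, the adiponectin gene of fat cells, lay between 3.05 and 3.13 on the log2 scale at 0.5 d and at 2.82, 2.97 and 5.383 at 0 d, with 0 d replicate 3 the highest. In whole tissue, fewer cells of a type and less RNA per cell cannot be told apart.

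Replicate 3 of 0.5 d stood apart from the other arrays of its time, and the counts of each gene list against 0 d are therefore given with and without it. Across the 13642 genes tested, the log2 levels of replicates 1 and 2 correlated with r = 0.993, while replicate 3 correlated with them at 0.970 and 0.969. Replicate 3 lay at least 1 log2 unit above both others for 195 genes and at least 1 below both for 292 genes. These are 3.57% of the genes, against 0.169% for replicate 1 and 0.117% for replicate 2. Among all 33 arrays the next highest share was 2.21%, on 0.25 d replicate 1.

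At 0.5 d, 2158 genes (15.8% of 13642) were called higher and 2650 (19.4%) lower than at 0 d. Of these, 321 were higher and 575 lower by 2-fold or more. The median log2 difference over all genes tested was -0.00427, a value that the authors' normalization holds near 0. Without 0.5 d replicate 3, 1637 genes (12%) were higher and 2024 (14.8%) lower. Of the calls, 1499 higher and 1898 lower were made both ways, 1411 only with replicate 3, 264 only without it, and 0 in opposite directions. The arrays of 0.25, 0.5, 0.75 and 1.5 d carry a later run of sample numbers than those of the other times, and the sources do not say whether they were processed separately. The 0 d arrays stand in the earlier run, so run and time cannot be told apart between 0.5 d and 0 d. The mean of 0.75 d and 1.5 d differed from 1 d for 24 genes, 5 higher and 19 lower. This difference holds any uneven change between 0.75 d and 1.5 d as well as any effect of run. It therefore does not measure run alone, and the count of 24 does not size a run effect. With that difference taken off every gene as an offset, 1324 genes were higher and 1487 lower at 0.5 d.

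Genes of stress responses were higher at 0.5 d and genes of hepatocyte functions lower. Of 164 tested genes on 8 stress lists, 82 (50%) were higher and 18 lower, with a median log2 difference of 0.56. Of 277 tested genes on 10 lists of hepatocyte functions, 155 (56%) were lower and 23 higher, with a median log2 difference of -0.58. Without replicate 3 these counts were 75 higher and 16 lower for stress and 130 lower and 19 higher for hepatocyte functions, with median log2 differences of 0.40 and -0.44.

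**Figure D1:**
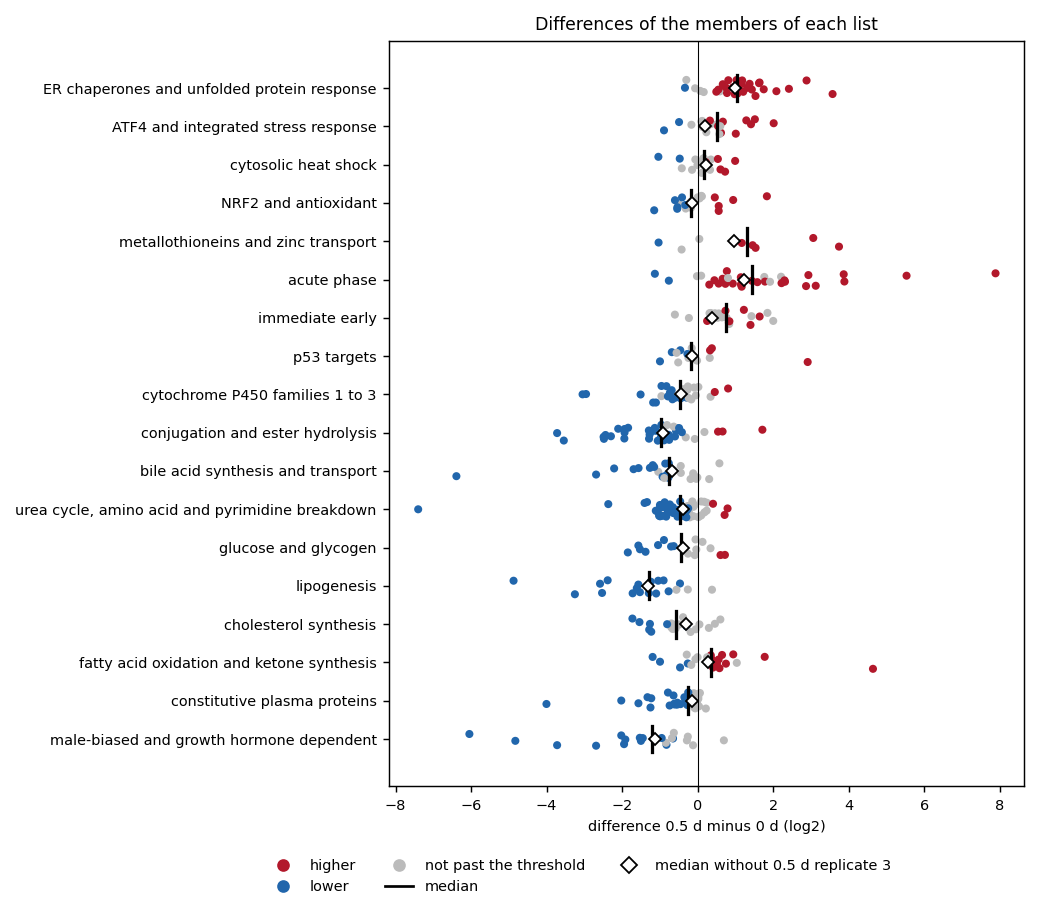
Log2 difference 0.5 d minus 0 d (horizontal axis) of each tested gene on 8 stress and 10 hepatocyte function lists (rows), red for genes called higher, blue for lower and grey for the rest, with the median of all 3 arrays a time (bar) and the median without 0.5 d replicate 3 (open diamond). The chaperone list lies almost wholly to the right and the lipogenesis list almost wholly to the left, with both medians nearly in the same place, whereas the diamonds of the integrated stress, immediate early and cholesterol lists lie nearer to 0 than the bars.

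The clearest stress group was the chaperone and unfolded protein response list. Of its 31 genes, all of them tested, 25 were higher and 1 lower, with a median log2 difference of 1.05, and the count was the same without replicate 3 (25 and 1, median 1.00). Part of the family is switched on through the ER stress element, a promoter sequence read by ATF6 with the factor NF-Y, spelled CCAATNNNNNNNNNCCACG and searched on both strands. In RefSeq promoters of build GRCm38.p6, which run from 250 bases before the gene start to 50 after it, 10 of the 25 list genes with a promoter entry held this sequence (40%), against 37 of 27025 genes in all (0.137%). The list contains textbook targets of these factors, so this share describes how the list was made as much as the data. The promoters of the 4 called genes with the largest log2 differences among those that hold the element follow 5′ to 3′ along the gene, because they put the sequence beside the response, with the element in capitals. Creld2 lies at chr15:88819396-88819695, Syvn1 at chr19:6046326-6046625, Dnajc3 at chr14:118937682-118937981 and Derl3 at chr10:75893148-75893447, all on the + strand.
Creld2: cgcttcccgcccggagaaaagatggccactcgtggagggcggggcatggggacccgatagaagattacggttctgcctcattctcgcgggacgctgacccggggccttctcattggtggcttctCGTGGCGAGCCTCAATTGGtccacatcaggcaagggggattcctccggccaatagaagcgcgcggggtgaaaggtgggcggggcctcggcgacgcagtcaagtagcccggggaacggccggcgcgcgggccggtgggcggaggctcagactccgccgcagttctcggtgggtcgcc
Syvn1: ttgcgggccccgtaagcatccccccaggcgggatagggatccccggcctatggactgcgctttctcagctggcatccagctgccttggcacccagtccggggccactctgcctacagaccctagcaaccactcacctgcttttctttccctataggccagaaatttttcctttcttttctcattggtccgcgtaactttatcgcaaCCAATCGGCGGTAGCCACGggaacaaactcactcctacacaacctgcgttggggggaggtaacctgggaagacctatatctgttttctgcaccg
Dnajc3: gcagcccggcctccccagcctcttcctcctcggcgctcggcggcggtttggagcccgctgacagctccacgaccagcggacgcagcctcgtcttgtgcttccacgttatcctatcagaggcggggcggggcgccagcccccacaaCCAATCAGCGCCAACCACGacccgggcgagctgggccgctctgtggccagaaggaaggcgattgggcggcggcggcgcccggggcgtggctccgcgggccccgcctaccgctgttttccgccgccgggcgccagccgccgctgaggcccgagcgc
Derl3: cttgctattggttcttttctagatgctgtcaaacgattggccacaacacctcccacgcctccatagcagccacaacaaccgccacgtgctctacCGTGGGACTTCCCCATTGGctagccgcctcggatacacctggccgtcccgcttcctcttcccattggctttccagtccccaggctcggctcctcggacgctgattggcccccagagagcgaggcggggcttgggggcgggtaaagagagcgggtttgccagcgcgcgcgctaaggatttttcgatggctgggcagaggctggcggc
The first base of the element stands 126 bases before the gene start in Creld2, 44 in Syvn1, 105 in Dnajc3 and 156 in Derl3. It reads along the gene in Syvn1 and Dnajc3 and on the opposite strand, as its reverse complement, in Creld2 and Derl3. A match is a run of letters and not a measured binding site.

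Creld2, an endoplasmic reticulum resident disulfide isomerase-like protein, led the group. Its log2 levels were 11.81, 12.10 and 13.004 at 0.5 d, against 8.86, 8.34 and 9.0 at 0 d. All 0.5 d arrays lay more than 2 units above the 0 d arrays, and replicate 3 was the highest. The log2 difference was 3.57 ± 0.41 (SE, n = 3 each, limma, adjusted p = 2.09e-07), and 3.22 without replicate 3. Sdf2l1, a partner of the main chaperone BiP, had log2 levels of 11.83, 12.03 and 12.26 at 0.5 d, against 8.82, 9.08 and 9.56 at 0 d, a difference of 2.88 ± 0.36 (SE). Syvn1, the ubiquitin ligase HRD1 that tags misfolded proteins, had log2 levels of 11.10, 11.47 and 12.56 at 0.5 d, against 9.27, 9.30 and 9.32 at 0 d. The 0 d arrays were nearly identical for Syvn1, and all 0.5 d arrays were above them.

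Other members rose by smaller amounts. Manf, a secreted factor released when folding is impaired, had log2 levels of 12.69, 12.80 and 13.23 at 0.5 d, against 10.96, 10.65 and 10.86 at 0 d. Hspa5, which encodes BiP, had log2 levels of 13.58, 13.75 and 13.99 at 0.5 d, against 12.51, 12.32 and 12.56 at 0 d, a log2 difference of 1.31. Dnajc3, a cochaperone that restrains PERK, had log2 levels of 12.27, 12.32 and 12.63 at 0.5 d, against 10.92, 10.78 and 11.22 at 0 d. In these 3 genes the times did not overlap. Derl3, which moves misfolded proteins out of the organelle, had log2 levels of 8.01, 7.92 and 9.34 at 0.5 d, against 6.78, 7.25 and 7.13 at 0 d, with replicate 3 more than 1 unit above its partners. Dnajb9, Dnajb11, Hyou1 and Pdia4, all chaperones or oxidoreductases, differed by 1.75, 1.64, 1.62 and 1.53 log2 units. The member that was lower was Mbtps1, the protease that releases ATF6, with a log2 difference of -0.34 and an adjusted p of 0.0676 without replicate 3. Ern1 and Atf6, which encode the sensors IRE1 and ATF6, were not called, at log2 differences of -0.30 and -0.07, although Atf6 was called lower without replicate 3, by -0.41. Against 0.25 d, where 16.0% of all genes were called higher and 5.25% lower, 22 of the 31 genes were higher at 0.5 d and 0 lower. Sdf2l1, one of the 22, had 11.06, 9.87 and 9.08 log2 units at 0.25 d, all below its 0.5 d arrays. Against 0.75 d, where 1.06% of all genes were called higher and 1.23% lower, 1 member was higher.

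**Figure D2:**
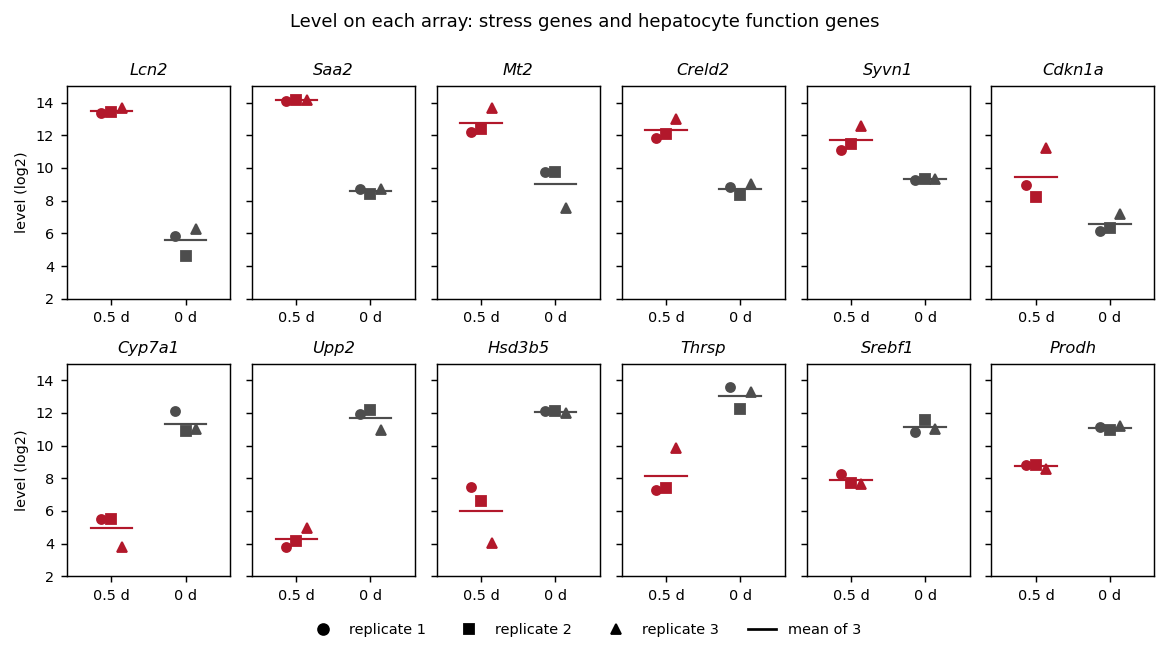
Log2 level (vertical axis) of 12 genes on each array, 0.5 d in red at the left and 0 d in grey at the right of each panel, with a marker shape per replicate and a line at the mean of 3 arrays. In all 12 panels the 0.5 d arrays lie wholly above (Lcn2, Saa2, Mt2, Creld2, Syvn1 and Cdkn1a) or wholly below the 0 d arrays (Cyp7a1, Upp2, Hsd3b5, Thrsp, Srebf1 and Prodh), and replicate 3 of 0.5 d (triangle) is farthest from its partners in Cdkn1a, Hsd3b5 and Thrsp. The panels are chosen examples. Lcn2, Saa2, Mt2, Creld2, Cyp7a1, Upp2, Hsd3b5 and Thrsp were named on condition that their arrays do not overlap, so their separation is no finding.

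The integrated stress response, in which ATF4 induces amino acid supply and death regulators, depended more on replicate 3. Of 21 tested genes 9 were higher and 2 lower with all arrays, and 6 were higher and 2 lower without replicate 3, where the median log2 difference was 0.20 instead of 0.50. Ddit3, which encodes the death regulator CHOP, had log2 levels of 8.13, 8.48 and 8.82 at 0.5 d, against 7.23, 7.07 and 6.89 at 0 d, a difference of 1.41 ± 0.22 (SE, adjusted p = 1.96e-05). Fgf21, a hepatic hormone of fasting and stress, had log2 levels of 6.65, 5.84 and 8.69 at 0.5 d, against 5.07, 5.29 and 4.78 at 0 d. All 3 arrays were above 0 d, but replicate 3 carried much of the difference of 2.01 log2 units, which was 1.2 without it. Psat1, an enzyme of serine synthesis, had log2 levels of 4.43, 4.64 and 6.74 at 0.5 d, against 3.95, 4.01 and 4.00 at 0 d, and its adjusted p of 0.0101 became 0.160 without replicate 3. Apart from 0.5 d replicate 3, its arrays lay under a log2 level of 5, so the size of its difference is uncertain. Asns, asparagine synthetase, was higher by 1.51 log2 units, but 0 d replicate 2 (8.45) overlapped the 0.5 d arrays (7.96 to 8.83). Shmt2 of mitochondrial serine breakdown and Vldlr, a lipoprotein receptor, were lower by -0.89 and -0.49.

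The cytosolic heat shock, antioxidant and p53 lists held calls in both directions, as did all genes tested, with 15.8% higher and 19.4% lower. Of 18 heat shock genes 5 were higher (27.8%) and 2 lower (11.1%), and 5 and 1 without replicate 3. Bag3, a cochaperone of HSP70, was higher by 0.99 log2 units and Hsp90aa1 by 0.73, while Fkbp4 was lower by -1.04, a value that was -0.43 without replicate 3. Of 20 NRF2 and antioxidant genes 5 were higher (25%) and 6 lower (30%), and 4 and 6 without replicate 3. Hmox1, the haem-degrading oxygenase, had log2 levels of 8.29, 8.04 and 8.94 at 0.5 d, against 6.59, 6.60 and 6.59 at 0 d, a difference of 1.83 ± 0.27 (SE, adjusted p = 8.93e-06). Srxn1 and Txnrd1, which repair oxidised proteins, were higher by 0.94 and 0.56, whereas Tkt of the pentose pathway and Ephx1, an epoxide hydrolase, were lower by -1.15 and -0.60. Of 15 p53 target genes 3 were higher (20%) and 4 lower (26.7%), and 2 and 4 without replicate 3. Cdkn1a, the cell cycle inhibitor p21, had log2 levels of 8.94, 8.24 and 11.20 at 0.5 d, against 6.15, 6.32 and 7.18 at 0 d. Its log2 difference was 2.91 ± 0.46 (SE, adjusted p = 1.63e-05) and 2.04 without replicate 3. Gadd45a, another growth arrest gene, was lower by -1.0.

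Metal-binding genes rose next to the chaperones. Metallothioneins Mt1 and Mt2 bind zinc and copper. Mt2 had log2 levels of 12.20, 12.38 and 13.69 at 0.5 d, against 9.75, 9.75 and 7.54 at 0 d, and Mt1 had 13.77, 13.47 and 14.50 at 0.5 d, against 11.51, 11.91 and 9.14 at 0 d. The lowest value of both genes was on 0 d replicate 3 and the highest on 0.5 d replicate 3, so both outer arrays widened the differences of 3.74 ± 0.82 and 3.06 ± 0.71 log2 units (SE, adjusted p = 0.000806 and 0.00145). Of the 8 list genes 5 were higher and 1 lower, with and without replicate 3. Slc39a10 and Slc39a14, zinc importers, were higher by 1.53 and 1.17, and Slc39a4, the intestinal-type importer, was lower by -1.04.

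Of 31 acute phase genes 23 were higher and 2 lower, and 25 were higher and 1 lower without replicate 3. The median log2 difference was 1.44, and 1.22 without replicate 3. Lcn2, lipocalin 2, which withholds iron from bacteria, had log2 levels of 13.35, 13.39 and 13.66 at 0.5 d, against 5.84, 4.64 and 6.27 at 0 d. Its difference of 7.89 ± 0.88 log2 units (SE, adjusted p = 1.34e-07) was the largest increase among genes that were called and did not overlap. The arrays of 0.5 d lay close together and far above those of 0 d. Saa2, a serum amyloid A, had log2 levels of 14.12, 14.13 and 14.14 at 0.5 d, against 8.73, 8.38 and 8.68 at 0 d. Saa1 is nearly identical in sequence, so probes may read both, and it was higher by 3.88. Apcs, serum amyloid P, and the protease inhibitor Serpina3n were higher by 2.93 and 3.12. Orm2, an acid glycoprotein, had log2 levels of 12.34, 12.13 and 10.88 at 0.5 d, against 8.46, 7.21 and 8.09 at 0 d, and here replicate 3 was the lowest of its time. The lower members were Saa4, a constitutive serum amyloid, at -0.76, and Hamp2, a gene of the hepcidin family, at -1.13. Against 0.25 d, 4 of the 31 genes were lower at 0.5 d.

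Other genes at the upper end fell outside the stress lists. Apoa4, an apolipoprotein raised in fasting and fatty liver, had log2 levels of 12.79, 13.01 and 13.68 at 0.5 d, against 9.17, 8.08 and 9.61 at 0 d, a difference of 4.21 ± 0.38 (SE, adjusted p = 4.97e-09). Cyp4a14, a fatty acid hydroxylase induced by PPARα, was higher by 4.64 log2 units, with 0.5 d arrays at 13.56, 13.59 and 13.59 and 0 d arrays at 8.17, 8.02 and 10.63. Bmper, a secreted modulator of BMP signals, and Cxcl1, a neutrophil attractant, were higher by 3.73 and 3.28. Of 12 neutrophil and monocyte markers 3 were higher (25%) and 0 lower, with and without replicate 3. With all arrays, 15.8% of all genes tested were higher and 19.4% lower. Whether these markers differed from all genes was not tested. S100a8 had log2 levels of 7.02, 6.39 and 8.36 at 0.5 d, against 4.6, 4.89 and 4.50 at 0 d. Mpo lay between 4.04 and 4.42 at 0.5 d and between 4.16 and 4.26 at 0 d. These values are under a log2 level of 5, too low to show whether Mpo changed.

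Among 20 immediate early genes 7 were higher and 0 lower, and 3 were higher without replicate 3. Jun had log2 levels of 9.06, 7.57 and 8.44 at 0.5 d, against 6.68, 6.27 and 7.19 at 0 d, a difference of 1.64 that was 1.6 without replicate 3. Junb, by contrast, had 8.06, 7.72 and 9.33 at 0.5 d, against 6.70, 7.92 and 6.84 at 0 d, and Btg2, an antiproliferative gene, had 8.21, 7.31 and 10.10 at 0.5 d, against 6.83, 7.76 and 6.85 at 0 d. In both genes the times overlapped and the adjusted p without replicate 3 was 0.154 and 0.204. Klf6, a zinc finger factor, had 6.71, 6.70 and 8.08 at 0.5 d, against 6.29, 6.59 and 6.13 at 0 d, so that replicates 1 and 2 lay just above the 0 d arrays and replicate 3 well above them.

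Of 28 tested genes of bile acid synthesis and transport 15 were lower and 0 higher, with a median log2 difference of -0.77. Without replicate 3, 13 were lower and 1 higher (Fgfr4), with a median of -0.69. Cyp7a1, whose enzyme sets the pace of the classic pathway from cholesterol, had log2 levels of 5.5, 5.51 and 3.81 at 0.5 d, against 12.13, 10.88 and 10.98 at 0 d. The groups were more than 5 units apart, with a difference of -6.39 ± 0.62 (SE, adjusted p = 1.86e-08), and of -5.83 without replicate 3. Replicate 3 lay under 5, the log2 value used here to call a gene measurable, and its partners just above it. The size of this fall is therefore uncertain. Akr1d1, a reductase of the same pathway, had log2 levels of 9.03, 9.28 and 9.24 at 0.5 d, against 10.96, 10.46 and 10.83 at 0 d. Abcb11, the bile salt export pump, had 10.12, 11.13 and 8.53 at 0.5 d, against 11.59, 11.46 and 11.83 at 0 d, so that its difference of -1.70 log2 units was -1.0 without replicate 3. Abcg5, a sterol exporter, had an adjusted p of 0.00336 with all arrays and 0.0539 without replicate 3. Slc22a7 and Slco1a1, uptake carriers, were lower by -2.21 and -2.69.

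Genes that depend on the male pattern of growth hormone were lower as a group, 13 of 20 and 0 higher, with a median log2 difference of -1.20 (10 genes and -1.13 without replicate 3). Hsd3b5, a steroid dehydrogenase of male liver, had log2 levels of 7.44, 6.58 and 4.04 at 0.5 d, against 12.10, 12.11 and 11.98 at 0 d, a difference of -6.05 ± 0.62 (SE, adjusted p = 3.7e-08) and of -5.06 without replicate 3. Keg1, an acyltransferase-like gene, had 8.45, 7.76 and 4.97 at 0.5 d, against 12.12, 11.73 and 11.83 at 0 d. Replicate 3 was more than 2 units below its partners in both genes, and under a log2 level of 5, so the size of these falls is uncertain. Hsd3b2 and Hsd3b3, close relatives of Hsd3b5 whose probes may share its signal, were lower by -4.99 and -3.88, and Igfals, the carrier subunit of IGF1 complexes, by -2.02. Elovl3, which elongates fatty acids, was lower by -1.95 with an adjusted p of 0.0489, and of 0.100 without replicate 3.

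Lipogenesis genes were lower in most cases, 16 of 19 genes and 0 higher, with a median log2 difference of -1.29 (15 genes and -1.31 without replicate 3). Srebf1, the master factor of fatty acid synthesis, had log2 levels of 8.25, 7.72 and 7.66 at 0.5 d, against 10.83, 11.57 and 10.98 at 0 d, a difference of -3.25 ± 0.21 (SE, adjusted p = 1.74e-11). Thrsp, a nuclear protein that follows carbohydrate feeding, had 7.27, 7.38 and 9.84 at 0.5 d, against 13.57, 12.24 and 13.30 at 0 d. Here replicate 3 lay on the other side and made the fall smaller, -4.88 log2 units with it and -5.71 without it. Acss2, Scd1, Mid1ip1 and Acly, which activate acetate, desaturate fatty acids, assist acetyl-CoA carboxylase and cleave citrate, were lower by -2.59, -2.53, -2.38 and -1.72. Cholesterol synthesis was less uniform, with 7 of 20 genes lower and 0 higher, and replicate 1 differed from the others. Without replicate 3, 5 were lower, and the median log2 difference was -0.31 instead of -0.57. Insig1, which holds SREBP in the endoplasmic reticulum, had log2 levels of 10.39, 8.30 and 8.64 at 0.5 d, against 10.40, 11.14 and 10.97 at 0 d. The sterol dehydrogenase Nsdhl had 9.94, 7.97 and 8.20 at 0.5 d, against 10.004, 10.12 and 9.84 at 0 d. The median log2 difference of the list from the 0 d mean was 0.33 on replicate 1, -1.16 on replicate 2 and -0.96 on replicate 3. Against 0.25 d, 14 of the 20 genes were higher at 0.5 d and 1 lower. Against 1 d, where 7.98% of all genes were called higher and 10.7% lower, 15 were lower and 0 higher.

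Conjugating enzymes showed the highest count among the lists of drug metabolism, 31 of 39 genes lower and 3 higher, with a median log2 difference of -0.97 (30 lower and -0.91 without replicate 3). Inmt, an indole N-methyltransferase, had log2 levels of 9.65, 8.79 and 9.92 at 0.5 d, against 12.78, 13.02 and 13.20 at 0 d. Ugt2b1, a glucuronosyltransferase, had 10.72, 10.79 and 10.50 at 0.5 d, against 13.12, 13.09 and 13.13 at 0 d, a difference of -2.44 ± 0.20 (SE, adjusted p = 1.45e-09). Gstm6, a glutathione transferase, had 7.85, 7.77 and 7.44 at 0.5 d, against 10.09, 10.36 and 10.09 at 0 d. In these 3 genes the 0.5 d arrays lay more than 2 units below every 0 d array. Nnmt, nicotinamide N-methyltransferase, went the other way with 13.04, 12.98 and 13.59 at 0.5 d, against 11.43, 11.95 and 11.09 at 0 d, and As3mt and Sult1a1 were higher by 0.66 and 0.54.

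Of 27 cytochrome P450 genes of families 1 to 3, 14 were lower and 2 higher, and 13 and 1 without replicate 3. Cyp1a2, which oxidises caffeine, had log2 levels of 9.46, 9.65 and 9.34 at 0.5 d, against 12.62, 12.08 and 12.62 at 0 d, a difference of -2.96 ± 0.34 (SE, adjusted p = 2e-07). Cyp2c55 had 5.44, 5.44 and 5.18 at 0.5 d, against 8.34, 8.17 and 8.69 at 0 d. In both, every 0.5 d array lay more than 2 units below the 0 d arrays. Cyp2c70, which makes the muricholic acids of mice, and Cyp2f2 were lower by -1.51 and -1.18. Cyp3a13 was higher by 0.80, and Cyp2c39 by 0.45, with an adjusted p of 0.0505 for Cyp2c39 without replicate 3.

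In the list of urea cycle, amino acid and pyrimidine breakdown 28 of 49 genes were lower and 3 higher, and 22 and 3 without replicate 3. Upp2, a uridine phosphorylase, had log2 levels of 3.78, 4.17 and 4.95 at 0.5 d, against 11.93, 12.20 and 10.97 at 0 d. The fitted difference was -7.40 ± 0.41 log2 units (SE, adjusted p = 1.16e-12). All 3 arrays of 0.5 d lay below 5, the log2 value used here to call a gene measurable, so the size of this fall is uncertain. Prodh, proline dehydrogenase, had 8.79, 8.82 and 8.58 at 0.5 d, against 11.13, 10.97 and 11.19 at 0 d. Otc, ornithine transcarbamylase of the urea cycle, had 11.87, 11.91 and 11.77 at 0.5 d, against 12.97, 12.95 and 12.96 at 0 d, a difference of -1.11 ± 0.10 (SE, adjusted p = 3.29e-09). Cps1, the entry enzyme of the cycle, was not called, at -0.24. Aass, Mat1a and Slc25a15, of lysine breakdown, S-adenosylmethionine synthesis and ornithine transport, were higher by 0.79, 0.71 and 0.41.

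Glucose and glycogen genes were lower in 8 of 16 cases and higher in 2, and in 6 and 2 without replicate 3. Pygl, glycogen phosphorylase, had log2 levels of 10.47, 10.93 and 10.42 at 0.5 d, against 12.24, 11.84 and 12.33 at 0 d, and Gys2, glycogen synthase, was also lower, by -1.38. Slc2a2, the glucose carrier, overlapped between the times and had an adjusted p of 0.308 without replicate 3. Pcx, pyruvate carboxylase, was higher by 0.60. Of 24 fatty acid oxidation and ketone genes 13 were higher and 4 lower, the opposite balance to the other hepatocyte lists, and 9 were higher and 3 lower without replicate 3. Ppara, the nuclear receptor that drives this pathway, was itself lower, with log2 levels of 9.54, 9.30 and 9.41 at 0.5 d, against 10.70, 10.86 and 10.28 at 0 d. Pdk4, which shuts off pyruvate oxidation, had 6.73, 6.41 and 10.07 at 0.5 d, against 5.94, 5.33 and 6.62 at 0 d, and its adjusted p of 0.0358 was 0.437 without replicate 3.

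Of 41 constitutive plasma proteins 22 were lower and 0 higher, with a median log2 difference of -0.25. Without replicate 3, 16 were lower and 0 higher, and the median was -0.16. Serpina6, corticosteroid-binding globulin, had log2 levels of 6.97, 6.98 and 7.46 at 0.5 d, against 10.92, 11.58 and 10.93 at 0 d, a difference of -4.01 ± 0.34 (SE, adjusted p = 2.32e-09). Mbl2, a lectin of complement, and C8b were lower by -1.57 and -1.33. Serpind1, heparin cofactor II, had 11.44, 11.57 and 9.63 at 0.5 d, against 12.14, 12.25 and 12.01 at 0 d, and replicate 3 changed its difference to -1.25 from the -0.63 of the other arrays. Of 17 hepatocyte transcription factors 5 were lower (29.4%) and 1 higher (5.88%), against 19.4% and 15.8% of all genes tested. Without replicate 3, 3 were lower and 0 higher, where 14.8% of all genes were lower. Whether this list differed from all genes was not tested. Cebpa had 9.89, 9.95 and 8.78 at 0.5 d, against 11.06, 11.38 and 11.0035 at 0 d, a difference of -1.61 ± 0.23 (SE, adjusted p = 3.71e-06). Nr1h4, the bile acid receptor FXR, was lower by -1.17.

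Whether 0.5 d was the deepest point of the loss depended on replicate 3. Over the 11 times, 84 of the 277 hepatocyte function genes (30.3%) had their lowest mean at 0.5 d, against 66 at 0.25 d, 21 at 0.75 d and 45 at 3 d. Over all genes tested the share at 0.5 d was 10.2%. Of those 13642 genes, 3427 had their lowest mean at 0.25 d, 1387 at 0.5 d, 642 at 0.75 d and 1510 at 3 d. The commonest low point over all genes was thus 0.25 d, so the 66 there are not particular to hepatocyte genes. Without replicate 3, 57 hepatocyte genes (20.6%) had their lowest mean at 0.5 d, against 7.83% of all genes. Against 0.25 d, 51 hepatocyte genes were lower at 0.5 d and 20 higher, and 48 were lower without replicate 3. Against 0.75 d, 16 were lower and 6 higher, and only 5 were lower without replicate 3. Against 1 d, 86 were lower and 22 higher, and 45 were lower without replicate 3. Of all genes tested, 5.25%, 1.23% and 10.7% were lower than at 0.25, 0.75 and 1 d, and 16.0%, 1.06% and 7.98% higher. These shares were not counted without replicate 3. The 1 d arrays, unlike those of 0.25 d and 0.75 d, stand in the other run of sample numbers. Run and time therefore cannot be told apart in the count against 1 d. The 0 d arrays stand in that run too, so the same holds for every count against 0 d.

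Called lower at 0.5 d than at both 0.25 d and 0.75 d were 4 of the 277 genes. The share over all genes tested was not counted, so this count cannot be set against it. Upp2 had log2 levels of 9.22, 9.14 and 9.71 at 0.25 d, 3.78, 4.17 and 4.95 at 0.5 d and 7.23, 7.60 and 6.67 at 0.75 d. Prodh had 9.62, 10.13 and 9.80 at 0.25 d, 8.79, 8.82 and 8.58 at 0.5 d and 9.46, 9.92 and 9.87 at 0.75 d. In both genes all 3 arrays of 0.5 d, replicate 3 included, lay below all arrays of 0.25 d and 0.75 d. Both were picked by their calls against these times, so this separation only describes them. The others were Fmo1, a flavin monooxygenase, and Amacr, a racemase of bile acid and branched fatty acid oxidation, lower than 0.25 d by -0.70 and -0.68 log2 units, and in both replicate 3 was the lowest array.

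**Figure D3:**
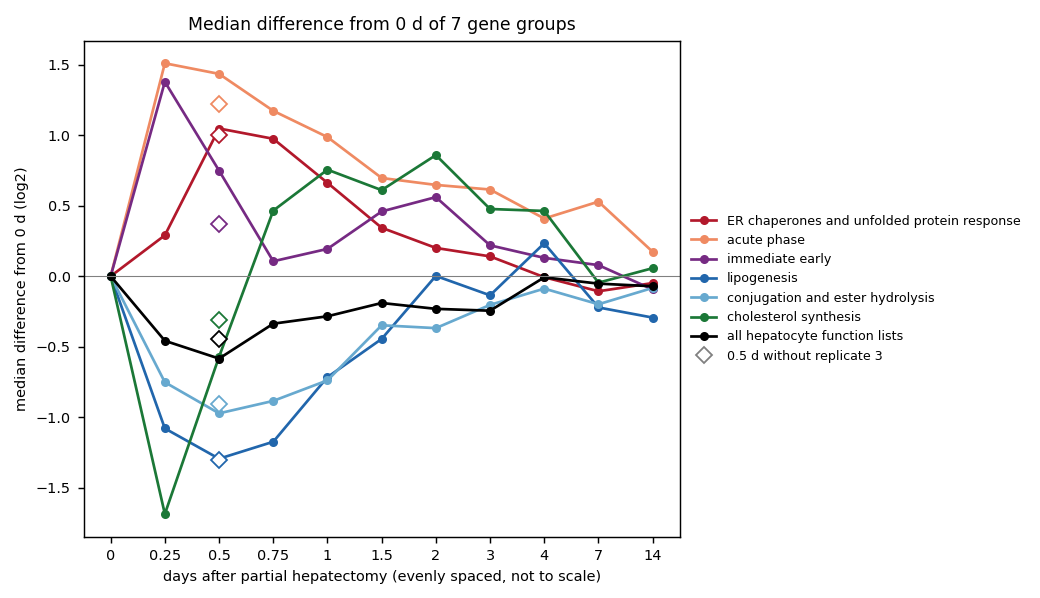
Median log2 difference from 0 d (vertical axis) of 7 gene groups at each of 11 times (horizontal axis, evenly spaced), with open diamonds for 0.5 d without replicate 3. The chaperone list stands at 0.29 at 0.25 d, 1.05 at 0.5 d and 0.97 at 0.75 d, the cholesterol list at -1.69, -0.57 and 0.47 at the same times, and the hepatocyte lists together reach -0.58 at 0.5 d with replicate 3 and -0.44 without it, against -0.46 at 0.25 d.

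Replicate 3 departed from its partners towards the levels of 0.25 d. Its log2 levels correlated with the 0.25 d mean at 0.978 and with the 0.75 d mean at 0.962, while replicates 1 and 2 both correlated with the 0.75 d mean at 0.993 and with the 0.25 d mean at 0.975 and 0.972. On a scale on which the 0.25 d mean is 0 and the 0.75 d mean is 1, replicate 3 stood at 0.236 and replicates 1 and 2 at 0.790 and 0.849. Placed on the same scale with their own array left out of the mean, the 0.25 d arrays ranged between -0.0897 and 0.303 and the 0.75 d arrays between 0.906 and 0.990. Of the 487 genes on which replicate 3 lay at least 1 unit apart, 446 (91.6%) departed to the side of 0.25 d. Over all genes tested this share was 63.1%. Replicate 3 fell within the range of the 3 arrays of 0.25 d for 170 of the 487 genes and within that of the 0.75 d arrays for 0. The 487 were picked for their distance from replicates 1 and 2, which lay near 0.75 d, so the 0 was largely set by that choice. Neither count was taken over all genes. Across genes, its departure correlated with the 0.25 d minus 0.75 d difference at r = 0.593, a description over 13642 genes that are not independent. Against single 0.25 d arrays, replicate 3 correlated at 0.967 to 0.974, replicate 1 at 0.955 to 0.977 and replicate 2 at 0.949 to 0.977, so these ranges overlapped. Against single 0.75 d arrays the values were 0.957 to 0.961 for replicate 3, and 0.990 to 0.992 for replicate 1 as for replicate 2. The sources record nothing about the liver behind this array, and how it came to differ was not tested.

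**Figure D4:**
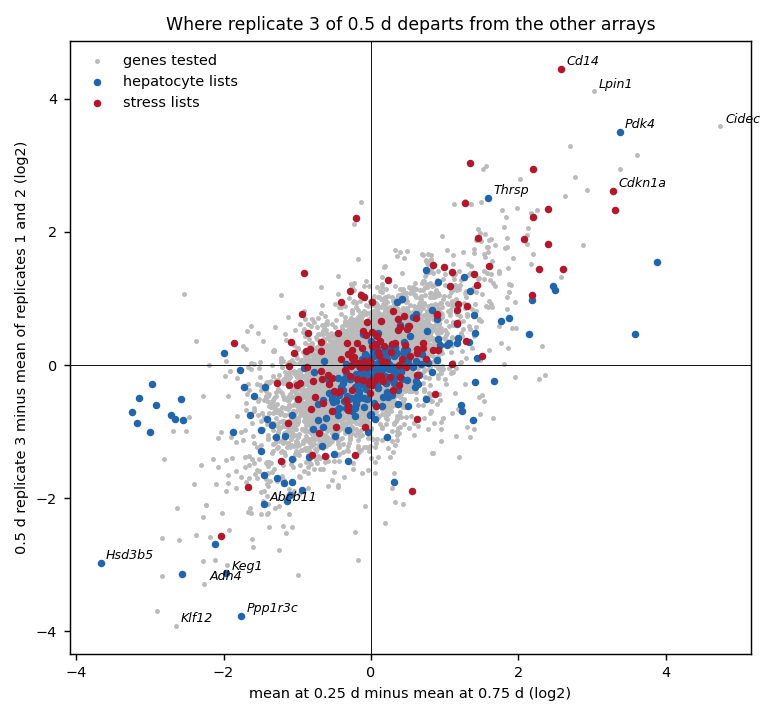
Each point is a gene: the log2 level on 0.5 d replicate 3 minus the mean of replicates 1 and 2 (vertical axis) against the mean at 0.25 d minus the mean at 0.75 d (horizontal axis), with hepatocyte lists in blue, stress lists in red and other genes in grey. The cloud rises to the right (r = 0.593), with Cd14, Lpin1, Pdk4 and Cidec at the upper right and Klf12, Ppp1r3c, Adh4 and Hsd3b5 at the lower left.

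The genes farthest above on replicate 3 had varied functions. Cd14, the co-receptor for endotoxin, had log2 levels of 6.46, 6.0 and 10.68 at 0.5 d, against 5.36, 5.33 and 5.83 at 0 d, and 11.01, 6.57 and 6.98 at 0.25 d. Lpin1, a phosphatidate phosphatase and coactivator, had 7.62, 7.12 and 11.48 at 0.5 d, against 10.04, 9.08 and 9.88 at 0 d. Replicate 3 was thus above 0 d while replicates 1 and 2 were below it, and Lpin1 was called lower only without replicate 3 (log2 difference -2.30, adjusted p = 0.00476). Cidec, a lipid droplet protein, had 6.22, 6.39 and 9.89 at 0.5 d, against 4.57, 3.93 and 4.10 at 0 d, and 9.70, 9.04 and 9.80 at 0.25 d. Plin4, another droplet coat protein, had 6.20, 6.25 and 8.59 at 0.5 d, against 5.87, 6.04 and 6.13 at 0 d, and was called higher only with replicate 3, on which Adipoq was 3.05. Ier3, Tiparp, Nrg4, B3galt1, Slc7a6 and Chac1 were at least 2.74 log2 units above both partners on replicate 3, and none of these 6 was called against 0 d. Rab30 and Enc1 were called, by 1.87 and 2.09 log2 units, and Rab30 had an adjusted p of 0.0760 without replicate 3.

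Other genes lay farthest below on replicate 3. Klf12, a transcriptional repressor, had log2 levels of 9.11, 9.07 and 5.17 at 0.5 d, against 9.09, 8.90 and 9.56 at 0 d. Ppp1r3c, which targets a phosphatase to glycogen, had 10.55, 10.63 and 6.82 at 0.5 d, against 8.92, 9.68 and 10.18 at 0 d, and without replicate 3 it was called higher by 1.00 (adjusted p = 0.0272). Adh4, an alcohol dehydrogenase, had 11.24, 11.31 and 7.99 at 0.5 d, against 10.68, 10.57 and 10.74 at 0 d. In all 3 genes replicates 1 and 2 were level with or above 0 d, and the 0.25 d arrays lay at 5.5 to 7.11 for Klf12, at 8.15 to 8.97 for Ppp1r3c and at 8.14 to 9.65 for Adh4. Akr1c14 and Apol7a were lower than 0 d with and without replicate 3, by -2.91 and -1.86 log2 units for Akr1c14 and by -2.00 and -0.77 for Apol7a. Angptl8, Cldn1, Sgk2 and Nr0b2, the last a repressor of bile acid synthesis known as SHP, were not called with either set of arrays.

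Clock genes differed between the times and among the 0 d arrays. Of 18 tested, 7 were lower and 2 higher, and 6 and 1 without 0.5 d replicate 3. Dbp, an output gene of the clock, had log2 levels of 5.82, 7.85 and 6.22 at 0.5 d, against 11.05, 11.65 and 8.36 at 0 d, and Per3, a repressor of the clock, had 4.78, 5.00 and 4.49 at 0.5 d, against 7.71, 8.20 and 6.41 at 0 d. Arntl, which encodes the activator BMAL1, had 7.99, 7.66 and 7.60 at 0.5 d, against 5.28, 5.39 and 8.12 at 0 d. On 0 d replicate 3 all 3 genes stood nearer to the 0.5 d arrays than on the other 0 d arrays, and Arntl stood above them. Without 0 d replicate 3, 9 genes were lower and 3 higher, and the log2 difference was 2.42 for Arntl and -4.72 for Dbp. Without 0 d replicate 1 the counts were 5 lower and 0 higher, and without 0 d replicate 2 they were 4 and 0. Hours of collection are not in the labels, so time of day and time after the operation cannot be told apart for these genes or for others that follow the clock.

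**Figure D5:**
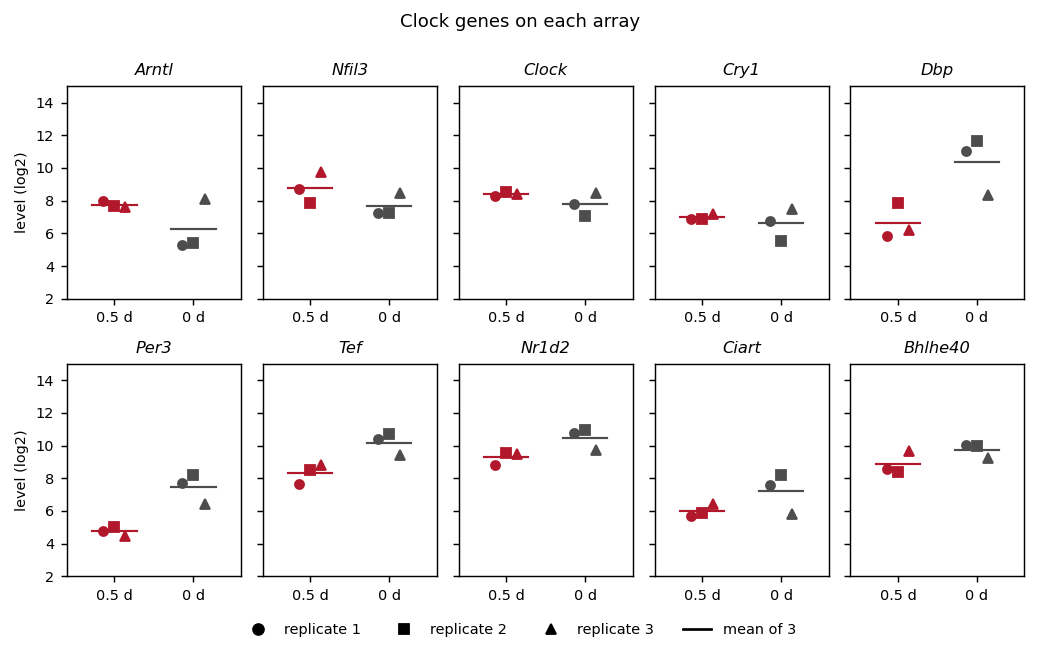
Log2 level (vertical axis) of 10 clock genes on each array, 0.5 d in red at the left and 0 d in grey at the right, with a marker shape per replicate and a line at the mean of 3 arrays. The 0 d triangle (replicate 3) lies above the other 0 d arrays in Arntl, Nfil3, Clock and Cry1 and below them in Dbp, Per3, Tef, Nr1d2, Ciart and Bhlhe40.

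Genes of growth moved in both directions. Of 32 ribosome biogenesis genes 22 were higher and 1 lower, and 16 were higher without replicate 3. Nop58, a core protein of snoRNA particles, had log2 levels of 9.42, 9.50 and 9.80 at 0.5 d, against 8.53, 7.63 and 8.15 at 0 d, a difference of 1.47 ± 0.25 (SE, adjusted p = 4.98e-05). Of 30 DNA replication genes 9 were lower and 1 higher, and 9 and 0 without replicate 3. Tk1, thymidine kinase, had 5.37, 5.12 and 5.27 at 0.5 d, against 8.55, 8.95 and 8.51 at 0 d, and Mcm10, a replication initiation factor, had 9.01, 8.25 and 7.21 at 0.5 d, against 10.79, 11.03 and 10.60 at 0 d. Both were lower on every 0.5 d array.

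Of 22 interferon response genes 13 were lower and 0 higher, with a median log2 difference of -1.15, and 8 were lower without replicate 3. Cxcl9, a T cell attractant, had log2 levels of 6.15, 5.77 and 5.16 at 0.5 d, against 7.90, 8.04 and 8.27 at 0 d, a difference of -2.38 ± 0.38 (SE, adjusted p = 1.84e-05). Ifit1, an RNA-binding antiviral protein, had 5.59, 5.08 and 3.96 at 0.5 d, against 7.05, 6.93 and 7.23 at 0 d, and its adjusted p was 0.0751 without replicate 3. Replicate 3 was the lowest array for both. Of 15 Kupffer cell markers 6 were lower and 1 higher, and 3 were lower without replicate 3. Their mean log2 level ranged between 7.47 and 7.90 at 0.5 d, with replicate 3 the lowest, and between 7.79 and 8.33 at 0 d. Clec4f, a receptor restricted to Kupffer cells, had 7.80, 7.67 and 7.48 at 0.5 d, against 9.0, 8.54 and 9.02 at 0 d, while Marco, a scavenger receptor, had 7.63, 7.39 and 6.44 at 0.5 d, against 4.76, 5.39 and 5.55 at 0 d. The part of resident macrophages in the interferon values was not tested.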

How the data were processed

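Total RNA was labelled with biotin (5 µg per reaction) and hybridized to 3′ expression arrays, per the labels' protocols. The authors summarised the probes by RMA, as the submitters' processing notes name it, with no version, and deposited log2 values. RMA forces the arrays to 1 distribution, which hides any change shared by most genes, and values near the floor are compressed. Signal over background, not depth, limits these arrays. The replicates are called biological, and p-values measure only the spread between them.

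Of 45101 probe sets, 34945 had 1 gene symbol in the platform annotation, 932 several and 9160 none, and 64 were controls. By Entrez number 34741 matched the gene table, and 0 symbols changed. The probe set with the highest mean stood for each of 18193 genes, and 13642 with a log2 value of at least 5 on at least 3 arrays were tested. Every time received its own mean in a fit over the 33 arrays (limma 3.58.1, R 4.3.3, functions lmFit and eBayes; residual and prior degrees of freedom 22 and 3.69), with no replicate block, and two-sided p-values were adjusted by Benjamini-Hochberg over all genes, threshold 0.05. The 0.5 d arrays enter every comparison given. The fit was checked on simulated data. No 2 arrays of a time were identical.

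The members, gene lists and tests were chosen with earlier results of these data known, so no list is independent support. Genes named are the 12 highest and 12 lowest called genes whose arrays do not overlap, up to 6 called members of a list, members that moved against their list, any clock gene and markers of cell types, the 12 genes farthest above and below on replicate 3 and those lower than both neighbouring times. Clone and model names were passed over. Further members of the chaperone list (Hspa5, Hyou1, Pdia4, Dnajc3, Derl3, Ern1 and Atf6), and Fgfr4, were chosen after their values were seen. Log2 levels are not compared between genes.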

Additional observations from a re-analysis of the deposited data

How the results depend on the processing

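Of the 205 named genes called against 0 d, 111 kept their direction and stayed past the threshold under every alternative that tested them. The alternatives were no filter, a filter at 7, averaged probe sets, quantile normalization, a common median, a robust prior with an intensity trend, array weights, a replicate block, only the arrays compared, the offset between runs of sample numbers, and each array left out. The filter at 7 and the averaging of probe sets left some named genes untested. A gene left out there was judged on the other alternatives alone. The counts of stress genes higher (82) and hepatocyte genes lower (155) stayed within 1.5 times throughout. With only the 6 arrays compared, the fit had fewer samples and took its spread from those arrays. It gave 1005 genes higher and 1438 lower than at 0 d. Against 0.25, 0.75 and 1 d, 7, 0 and 24 hepatocyte genes were lower. With the offset between runs, which also holds uneven change over time, 1324 genes were higher and 1487 lower, and the cause was not tested.

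Leaving out each array in turn gave 1637 to 2150 genes higher and 2024 to 2651 lower than at 0 d, 74 to 87 stress genes higher and 130 to 154 hepatocyte genes lower. Against 0.25 d it gave 35 to 55 hepatocyte genes lower. Against 1 d the range was 45 to 93, the lowest without 0.5 d replicate 3. Against 0.75 d the range was 5 to 40, with 5 without 0.5 d replicate 3, 40 and 33 without 0.5 d replicates 1 and 2, and 7, 6 and 9 without 0.75 d replicates 1, 2 and 3. That count therefore rests on single arrays.

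Replicate numbers did not pair the samples: deviations of same-numbered arrays of 0.5 d and 0 d correlated at -0.229, -0.0198 and -0.0712. A replicate block gave 2141 genes higher and 2663 lower than at 0 d, 83 stress genes higher, and 155, 51, 13 and 87 hepatocyte genes lower than at 0, 0.25, 0.75 and 1 d. Quantile normalization gave 2560 higher and 2272 lower, a common median 2528 and 2300, so the balance between directions depends on the scaling.

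A turned sign was counted only for named genes called in the fit used here or under the alternative. These were Hspa4 (log2 difference -0.0991 with averaged probe sets), Rpa2 (-0.0135 with the offset) and Ppp1r3c (-0.905 to 0.998 with an array left out, the highest without 0.5 d replicate 3). Signs also turned among genes that were not called. Cry1, for example, stood at -0.147 without 0 d replicate 2 and at 0.838 without 0 d replicate 3. With 3 arrays a time and values near the floor compressed, small differences of dim genes are beyond reach.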

Other observations

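Of 8 adipocyte genes 3 were higher at 0.5 d and 1 lower, and 1 was higher and 1 lower without replicate 3. Fabp4, a fatty acid carrier of fat cells and macrophages, had log2 levels of 8.62, 9.04 and 10.52 at 0.5 d, against 8.01, 7.08 and 8.70 at 0 d, with an adjusted p of 0.252 without replicate 3. Lipe, hormone-sensitive lipase, was lower by -0.79. Adipoq and Lep, the defining hormones of fat cells, were between 3.05 and 3.35 on all 0.5 d arrays on the log2 scale.

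The departure of 0.5 d replicate 3 from its partners correlated across genes with that of 0.25 d replicate 1 from its own at r = 0.289, and with those of 0.25 d replicates 2 and 3 at -0.304 and -0.108. Departures of arrays of 1 time are tied to each other, since they are taken from their own mean. On both arrays Cd14 was high, 10.68 and 11.01 log2 units, as was Slc7a6, at 7.45 and 7.84. Other genes differed between these arrays. Ifit1 was 9.46 on 0.25 d replicate 1, against at most 5.09 on its partners, but was lowest of its time on 0.5 d replicate 3. Lpin1 was lowest of its time on 0.25 d replicate 1, at 10.79, but highest of its time on 0.5 d replicate 3. All these genes are chosen examples. The 0.25 d array had the next highest share of genes apart from its partners.

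The log2 signal of the actin 3′ control probe set exceeded that of the 5′ one by 0.566, 0.457 and 0.615 at 0.5 d, against 0.743, 0.792 and 0.939 at 0 d. For Gapdh the same difference was -0.208, -0.299 and -0.142 at 0.5 d, against -0.167, -0.118 and -0.0401 at 0 d. Replicate 3 was the highest 0.5 d array in both, and for Gapdh it lay above 0 d replicate 1. The part of RNA quality in the values of replicate 3 was not tested. The 18S control lay at 12.01, 11.97 and 11.28 at 0.5 d, against 12.15, 10.24 and 11.57 at 0 d.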
